A study of Mus musculus with 6 samples.

Results

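The cytosolic ribosomal protein genes were followed in polyadenylated RNA of mouse intestine from 3 libraries labelled HET, made from tissue with the Rnf111 S254D allele, and from 3 libraries labelled WT. They were chosen by symbol alone, as every row named Rpl or Rps with a number and at most an a or x after it, together with Rpsa, Rplp0, Rplp1 and Rplp2. This gave 76 of the 25416 rows of the table, 46 of the large and 30 of the small subunit. The labels give no strain, sex, age or segment of the intestine, and whether each library came from its own animal is not stated. P-values therefore cover only the variation among these 6 libraries, which may be technical. Levels are FPKM, fragments scaled to transcript length and library total. They are given as mean ± SD (n = 3 libraries of each genotype), with HET replicates 1, 2 and 3 before WT replicates 1, 2 and 3.

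A cytosolic ribosome joins a small subunit, which reads the mRNA, to a large subunit, which forms the peptide bonds. Each subunit holds ribosomal RNA and many small basic proteins, nearly all present in a single copy, and their genes are among the most highly expressed in proliferating tissues such as the intestinal crypt. Vertebrate ribosomal protein mRNAs begin with a C followed by a run of pyrimidines, the 5′ terminal oligopyrimidine (TOP) motif, through which mTORC1 and Larp1 control their translation. New subunits are assembled in the nucleolus by a separate set of biogenesis factors, many of them targets of Myc.

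The libraries differed in more than these genes, and the values that ran alongside were as follows. Summed FPKM of all rows was 469968 to 510568 in HET and 493950 to 520095 in WT. Transcripts of the mitochondrial genome held 18.3%, 16.0% and 15.4% of it in the HET libraries, against 14.2%, 15.5% and 13.9% in the WT libraries. Markers of enterocytes, which identify the labelled tissue, summed to 30042 to 33603 FPKM in HET and 22443 to 25076 in WT, with 3 of 13 higher and 0 lower. Of the crypt stem cell markers 0 of 9 were higher and 4 were lower (sums of 229 to 246 in HET and 264 to 300.0 in WT), and of the cycling cell markers 5 of 13 were higher and 0 lower (255 to 273 against 241 to 244). All 8 Paneth cell markers were lower (179 to 1406 against 6646 to 19630), as were all 9 tested markers of lymphocytes and plasma cells (488 to 886 against 1695 to 1758), all 10 of fibroblasts and smooth muscle (152 to 180 against 331 to 369) and 5 of 6 of endothelium (10.5 to 16.1 against 25.4 to 27.7). These counts (limma, adjusted p under 0.05) are to be read against all tested genes, of which 10.7% were higher and 35.7% lower. The lower crypt stem cell markers were 44.4% of their list, near that share. No listed marker was at 0 in every library. The part of these differences in the ribosomal protein values was not tested.

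Annotated transcription starts were read for the 56 members present in RefSeq's promoter table (mouse build GRCm38.p6), from 66 starts; the other 20 are not in that table. The letters searched on the transcribed strand were a C at the start base followed by 4 bases that were each C or T. At least 1 start with this motif was held by 13 of the 56 members (23.2%), against 813 genes (3.01%) of the whole table and 251 tested genes other than the members (2.81%). A run of at least 6 pyrimidines within 10 bases of the start was found in 29 members (51.8%) and in 24.0% of all genes. The starts shown were picked after the values were seen, to set genes that were higher in HET under every alternative (Rpl38, Rps15a, Rpl7a, Rpl27 and Rpl37) beside those of the 6 smallest log2 fold changes that the table holds (Rpl28, Rps10, Rps24 and Rps16) and beside Rps6 and Rplp0, chosen for their roles. Rps24 has 2 annotated starts, both shown. At these starts the searched letters were found in Rpl38 and Rps15a and not in Rpl7a, Rpl27 and Rpl37. Among the small differences they were found in Rpl28 and Rps10 and not in Rps24 and Rps16. Rps6 had them and Rplp0 did not. The start of Rpl7a and the first of Rps24 are a T inside runs of 21 and 9 pyrimidines. Each sequence runs from 30 bases before the annotated start through the first 15 transcribed bases, 5′ to 3′ on the gene's strand. Capitals mark the unbroken run of C and T that holds the start base, and a line without capitals has a purine there.
Rpl38 (chr11:114668550-114668594, plus strand): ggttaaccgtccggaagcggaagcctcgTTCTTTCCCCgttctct
Rps15a (chr7:118116133-118116177, minus strand): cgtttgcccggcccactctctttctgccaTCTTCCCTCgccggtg
Rpl7a (chr2:26910777-26910821, plus strand): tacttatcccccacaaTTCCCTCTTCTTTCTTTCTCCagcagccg
Rpl27 (chr11:101442215-101442259, plus strand): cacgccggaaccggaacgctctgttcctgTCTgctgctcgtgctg
Rpl37 (chr15:5116583-5116627, plus strand): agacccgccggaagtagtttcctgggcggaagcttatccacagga
Rpl28 (chr7:4792935-4792979, plus strand): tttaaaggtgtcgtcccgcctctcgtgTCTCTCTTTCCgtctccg
Rps10 (chr17:27635230-27635274, minus strand): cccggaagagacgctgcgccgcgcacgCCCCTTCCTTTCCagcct
Rps24, first start (chr14:24490648-24490692, plus strand): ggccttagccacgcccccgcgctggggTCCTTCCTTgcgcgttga
Rps24, other start (chr14:24490723-24490767, plus strand): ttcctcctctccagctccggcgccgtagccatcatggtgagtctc
Rps16 (chr7:28350659-28350703, plus strand): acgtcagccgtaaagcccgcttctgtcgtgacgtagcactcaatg
Rps6 (chr4:86857353-86857397, minus strand): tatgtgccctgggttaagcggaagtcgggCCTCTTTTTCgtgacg
Rplp0 (chr5:115559437-115559481, plus strand): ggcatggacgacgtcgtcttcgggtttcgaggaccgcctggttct

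Ribosomal protein transcripts made up a larger part of the mRNA in HET than in WT. The 76 genes held 7.11%, 6.21% and 5.84% of the summed FPKM in the HET libraries, against 5.06%, 4.89% and 4.76% in the WT libraries. Every HET library lay above every WT library, and HET replicate 1 stood highest. The means were 6.39 ± 0.656% in HET and 4.90 ± 0.151% in WT, 1.48 percentage points apart. In bulk tissue, fewer cells of a type and less RNA per cell cannot be told apart. With mitochondrially encoded genes left out of the sum, the share was 8.71%, 7.38% and 6.90% in HET, against 5.90%, 5.78% and 5.52% in WT, so the groups stayed apart.

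Both subunits had a larger share in HET. Large subunit genes held 4.19%, 3.62% and 3.48% in HET and 2.98%, 2.85% and 2.77% in WT. Small subunit genes held 2.92%, 2.58% and 2.36% in HET and 2.08%, 2.04% and 1.99% in WT. Each HET library exceeded every WT library for both, and the HET mean was 1.31-fold the WT mean for the large and 1.29-fold for the small subunit. The ratio of large to small subunit FPKM was 1.44, 1.40 and 1.47 in HET and 1.44, 1.39 and 1.39 in WT. Those groups overlapped, and the difference of 0.03 was smaller than the SD among the HET libraries (0.034).

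**Figure D1:**
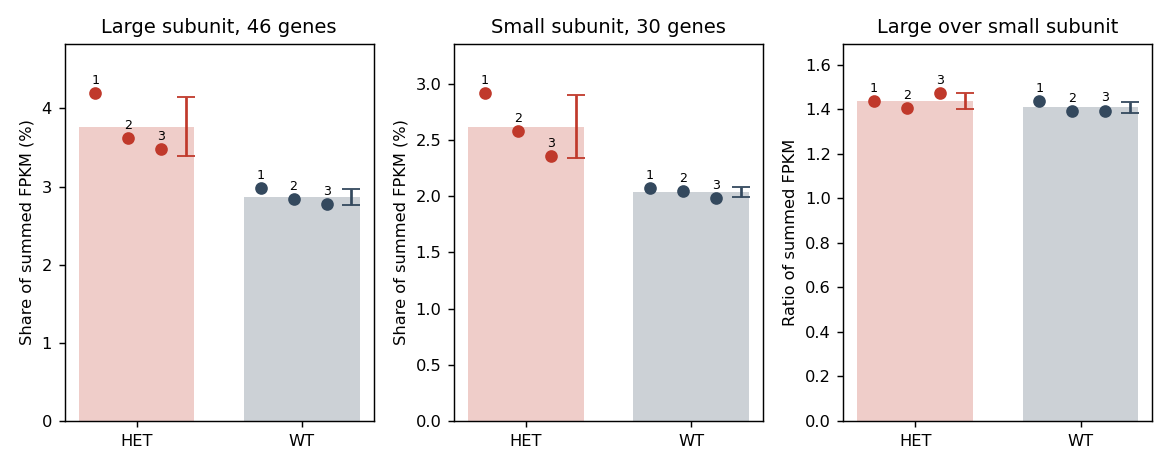
Share of summed FPKM (%) of the 46 large and 30 small subunit genes, and the ratio of their sums, in HET and WT. Points are libraries with their replicate number, bars are means and error bars are SD; the lowest HET shares (3.48% and 2.36%) lie above the highest WT shares (2.98% and 2.08%), while the ratio stays between 1.39 and 1.47 in all 6.

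In HET, 34 of the 76 genes passed as higher and 0 as lower (limma, adjusted p under 0.05 with the adjustment over all 11870 genes tested). Of all tested genes, 10.7% were higher and 35.7% were lower. The other 42 members did not pass. All 76 were tested, so none had been removed by the filter on low values. Before adjustment 55 members had a p under 0.05, and the log2 fold change was above 0 for all 76, as it was for 35.1% of all tested genes. Fold changes on this scale are differences of log2(FPKM + 1). Their median was 0.33 over the members and -0.12 over all tested genes, and the fold of mean FPKM ran between 1.08 and 1.60 with a median of 1.27. By subunit, 23 of 46 large subunit genes and 11 of 30 small subunit genes were higher, with median log2 fold changes of 0.34 and 0.32. The difference between these counts was not tested.

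All 3 HET values lay above all 3 WT values for 60 of the 76 genes, against 16.0% of all tested genes. The groups overlapped for 16 genes, among them Rps2, Rpl21, Rpl22, Rps10, Rpl17, Rps27a and Rpl28. The log2 fold changes of the 76 genes were close together. Of them 52 lay within 0.1 of the members' median, while the median half-width of a gene's own 95% confidence interval was 0.28.

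The count of 34 depended on single libraries, and so did the share of all tested genes that were higher, given after each count. It was 7 without WT replicate 2 (7.11% of all tested genes), 9 without WT replicate 3 (6.76%), 17 without HET replicate 2 (7.03%), 22 without WT replicate 1 (6.35%), 34 without HET replicate 1 (10.7%) and 59 without HET replicate 3 (13.6%). The 7 genes were 9.21% of the members, near the share of all genes. By subunit these counts ran between 6 (without WT replicate 2 or 3) and 36 (without HET replicate 3) for the large and between 1 (without WT replicate 2, 3.33% of its genes) and 23 (without HET replicate 3) for the small subunit. The other fits gave large subunit counts of 13 without HET replicate 2, 16 without WT replicate 1 and 23 without HET replicate 1, and small subunit counts of 4, 6 and 11, with 3 without WT replicate 3. The members' median log2 fold change stayed between 0.21 and 0.41 in these 6 fits. The count also depended on the scaling between libraries: 62 members were higher with a common sum per library (14.6% of all tested genes) and 65 with median-ratio scaling (23.0%), while 0 were lower under any alternative. These scalings also moved the balance over all genes, where 76.9% of the called genes were lower as deposited, 66.9% with a common sum, 52.1% with median-ratio scaling and 42.4% with quantile normalization. The last moved the median of all tested genes to 0.04, and the members' median then lay 0.27 above it, against 0.44 above it as deposited.

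**Figure D2:**
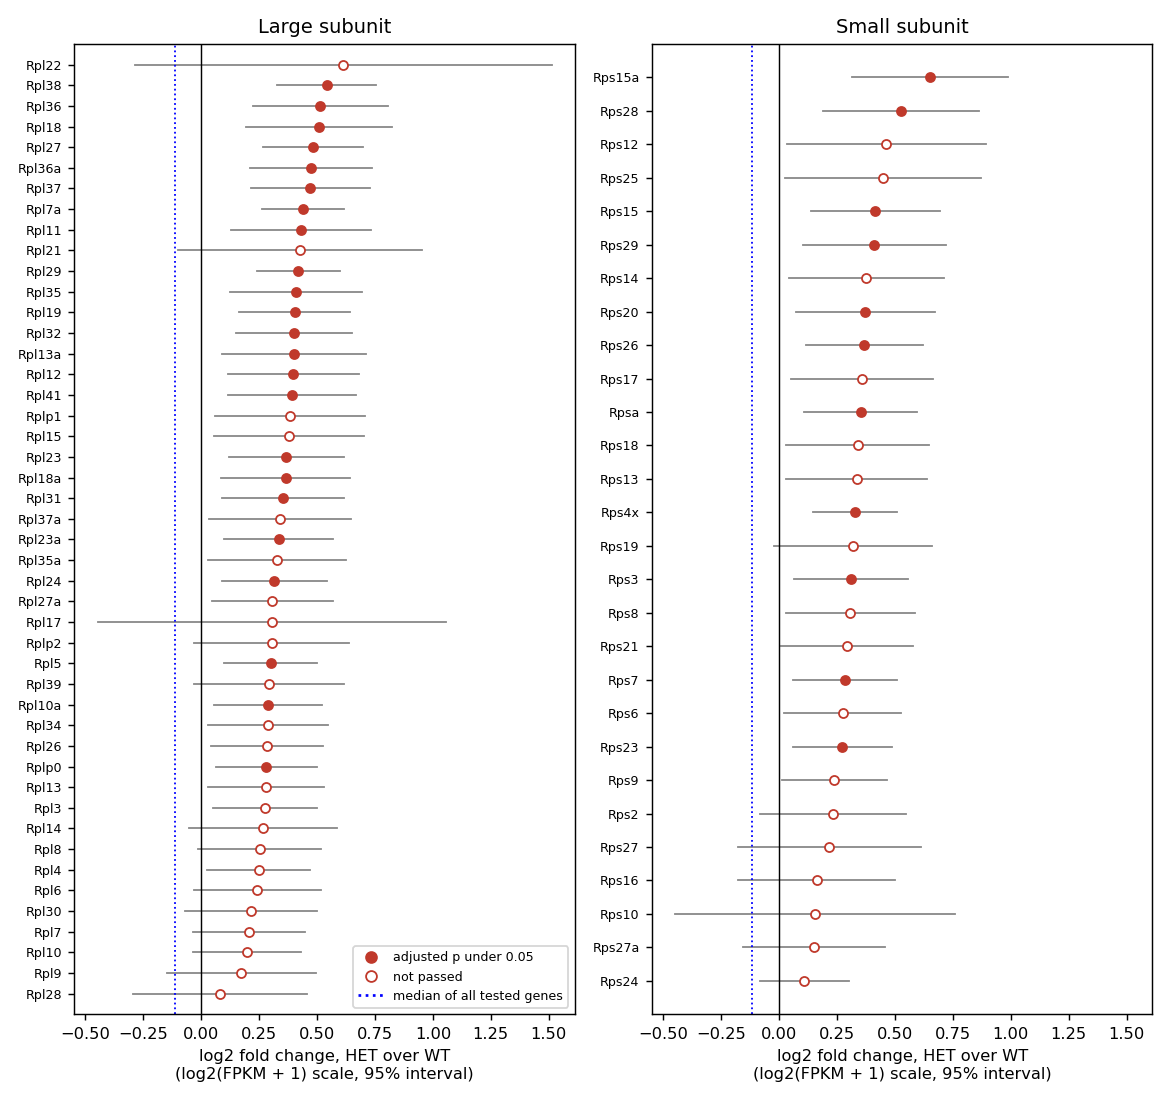
Log2 fold change of 74 of the 76 genes, HET over WT, with its 95% confidence interval, for the large subunit (left) and the small subunit (right). Filled points passed a limma adjusted p under 0.05, open points did not, and the dotted line is the median of all tested genes (-0.12); every point lies above 0.

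The members that passed the test with the largest differences were Rps15a, Rpl38, Rps28, Rpl36, Rpl18 and Rpl27. Rps15a, a protein of the small subunit body, was at 62.2, 76.3 and 50.8 FPKM in HET and at 42.0, 36.3 and 39.7 in WT. The lowest HET library was above the highest WT library, and the means were 63.1 ± 12.8 and 39.3 ± 2.85 (log2 fold change 0.65, SE 0.14, limma adjusted p = 0.0095). Rpl38, known in mice for its part in translating Hox mRNAs, was at 242, 193 and 219 FPKM in HET and 154, 146 and 146 in WT. These groups were well apart, with a log2 fold change of 0.54 (SE 0.09, limma adjusted p = 0.0033).

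Rps28, whose human gene is mutated in some families with Diamond-Blackfan anaemia, was at 299, 218 and 215 FPKM in HET and 181, 173 and 150 in WT. HET replicate 1 stood above the other two, and all 3 lay above WT (log2 fold change 0.53, limma adjusted p = 0.022). Rpl36, a large subunit protein, was at 450, 375 and 325 FPKM in HET and 284, 251 and 264 in WT. Rpl18, also of the large subunit, was at 509, 394 and 360 FPKM in HET and 312, 275 and 291 in WT. Both had a log2 fold change of 0.51, with limma adjusted p of 0.014 for Rpl36 and 0.019 for Rpl18. Rpl27 was at 408, 333 and 342 FPKM in HET and 257, 249 and 265 in WT, again without overlap (log2 fold change 0.48, limma adjusted p = 0.0055).

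Only 6 members passed in the fit of all libraries, in all 6 fits without 1 library and under every other alternative: Rpl7a, Rpl27, Rpl29, Rpl37, Rpl38 and Rps15a. Rpl7a, Rpl29 and Rpl37 were named after their values were seen. Rpl7a, a large subunit protein with many processed copies in the genome, was at 185, 174 and 188 FPKM in HET and 144, 135 and 123 in WT. Rpl29 was at 292, 249 and 276 FPKM in HET and 205, 205 and 199 in WT. Rpl37 was at 208, 177 and 176 FPKM in HET and 153, 130 and 122 in WT. In these 3 genes the HET libraries lay close together, with coefficients of variation of 3.97%, 8.06% and 9.77%, below the members' median of 15.7%.

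The genes of the P stalk, the arm of the large subunit that recruits elongation factors, include the members with the highest level. Rplp1 was at 1204, 940.3 and 833 FPKM in HET and 778, 742 and 738 in WT. The groups did not overlap, yet the spread among HET libraries left it short of the threshold (992 ± 191 against 753 ± 22.1, limma adjusted p = 0.056). It ranked 43, 54 and 60 among all rows in the HET libraries and 72, 72 and 80 in the WT libraries. Rplp0, the stalk base and a common reference gene in quantitative PCR, was at 1005, 885 and 833 FPKM in HET and 757, 718 and 758 in WT, and it was higher with a log2 fold change of 0.28 (limma adjusted p = 0.041). Rplp2, the partner of Rplp1, was at 299, 228 and 199 FPKM in HET and 193, 197 and 190 in WT, close to the WT values in HET replicate 3 (limma adjusted p = 0.12). With Rpl12, 2 of the 4 stalk genes were higher (50%), where 44.7% of all members and 10.7% of all tested genes were.

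Rpl5 and Rpl11 bind the 5S RNA and, outside the ribosome, the p53 regulator Mdm2, and both were higher. Rpl5 was at 310, 271 and 253 FPKM in HET and 223, 223 and 229 in WT (log2 fold change 0.30, limma adjusted p = 0.026). Rpl11 was at 516, 437 and 381 FPKM in HET and 365, 301 and 319 in WT (log2 fold change 0.43, limma adjusted p = 0.030). Neither gene's groups overlapped.

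Among other large subunit genes with high levels, Rpl41, which encodes the smallest ribosomal protein, was at 911, 747 and 718 FPKM in HET and 664, 566 and 575 in WT (log2 fold change 0.39, limma adjusted p = 0.030). Rpl13a, also known for silencing inflammatory mRNAs after release from the ribosome, was at 916, 772 and 635 FPKM in HET and 579, 578 and 584 in WT (log2 fold change 0.40, limma adjusted p = 0.043). Both were higher without overlap, and the WT libraries of Rpl13a were nearly equal. Rpl10, which joins the large subunit in a late step of its maturation, was at 710, 600 and 567 FPKM in HET and 532, 536 and 561 in WT. Its groups were apart by a small margin and it did not pass (log2 fold change 0.20, limma adjusted p = 0.14).

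In the small subunit, Rps6, the substrate of the S6 kinases that act downstream of mTORC1, was at 794, 684 and 607 FPKM in HET and 579, 557 and 577 in WT. Its groups did not overlap, and it did not pass (log2 fold change 0.28, limma adjusted p = 0.071). Rps19, the gene most often mutated in human Diamond-Blackfan anaemia, was at 429, 326 and 283 FPKM in HET and 270.3, 274 and 274 in WT (log2 fold change 0.32, limma adjusted p = 0.11). Here too HET replicate 1 was far above HET replicate 3, which lay just above WT. Of the 20 members on a list of human Diamond-Blackfan anaemia genes, 11 were higher (55%) and 0 lower, with a median log2 fold change of 0.36. Over all 76 members 44.7% were higher with a median of 0.33, and over all tested genes 10.7% were higher. Whether the listed genes differ from the other members was not tested.

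Rpsa, also known as the laminin receptor, was at 519, 578 and 513 FPKM in HET and 447, 367 and 451 in WT. It was higher (log2 fold change 0.35, limma adjusted p = 0.029), and its HET libraries did not follow the order seen in most members. Rps2, which lies at the mRNA entry of the small subunit, was at 869, 669 and 609 FPKM in HET and 587, 598 and 620.0 in WT. HET replicate 3 fell within the WT range and the gene did not pass (limma adjusted p = 0.19). Rps27a, made as a fusion to ubiquitin, was at 383, 311 and 265 FPKM in HET and 283, 282 and 288 in WT. HET replicate 3 was below all WT libraries (log2 fold change 0.15, limma adjusted p = 0.37).

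By position in the ribosome, 4 of 9 genes of the peptide exit tunnel and its rim were higher (44.4%). So were 5 of 14 genes of the small subunit head and beak (35.7%), and 0 of either list were lower. The share was 44.7% over all members and 10.7% over all tested genes. Their median log2 fold changes, 0.33 and 0.35, lay close to that of all members.

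Levels ranged 24.8-fold over the module, between a mean of 35.2 FPKM for Rpl21 and 872 for Rplp1, and 64 of the 76 genes lay between 200 and 800. Rpl21 was at 52.2, 31.7 and 37.7 FPKM in HET and 22.4, 30.5 and 36.7 in WT, overlapping (limma adjusted p = 0.16). Rps20 was at 97.8, 77.0 and 68.5 FPKM in HET and 65.1, 59.8 and 60.4 in WT, and was higher (log2 fold change 0.37, limma adjusted p = 0.047). Rps15a, Rps20 and Rpl21 were the 3 members with a mean under 100. The order of the genes by level was nearly the same in every library, with a Spearman correlation between any pair of libraries of 0.96 to 0.99 over the 76 genes, a description over genes that share a library.

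Rpl22, Rpl17, Rps10 and Rpl21 had the 4 largest coefficients of variation among the WT libraries, 23.0% to 44.6%, and varied widely in HET too. Rpl22, which is needed for T cell development in mice, was at 314, 240.1 and 133 FPKM in HET and 226, 117 and 105 in WT. Its values spread about as widely within each genotype as between them (log2 fold change 0.61, 95% confidence interval -0.29 to 1.51, limma adjusted p = 0.22). Rpl17, a protein of the exit tunnel, was at 210.5, 164 and 91.9 FPKM in HET and 162, 102 and 101 in WT, with HET replicate 3 the lowest of all 6 (limma adjusted p = 0.46). Rps10, chosen after its values were seen, was at 316, 413 and 224 FPKM in HET and 207, 318 and 321 in WT, with no order by genotype. A readthrough row that overlaps Rps10 was listed at 0 in every library.

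Rpl28 and Rps24, also chosen after their values were seen, had small differences. Rpl28 was at 374, 269 and 240 FPKM in HET and 291, 258 and 272 in WT. Rps24 was at 327, 285 and 275 FPKM in HET and 278, 277 and 265 in WT. In each the groups overlapped, with log2 fold changes of 0.08 and 0.11. Without HET replicate 1 those of Rpl28 and Rps16 were among the 3 that turned negative, and that of Rps10 did without HET replicate 2 or WT replicate 1, while 72 of the 76 stayed positive in all 6 fits without 1 library.

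**Figure D3:**
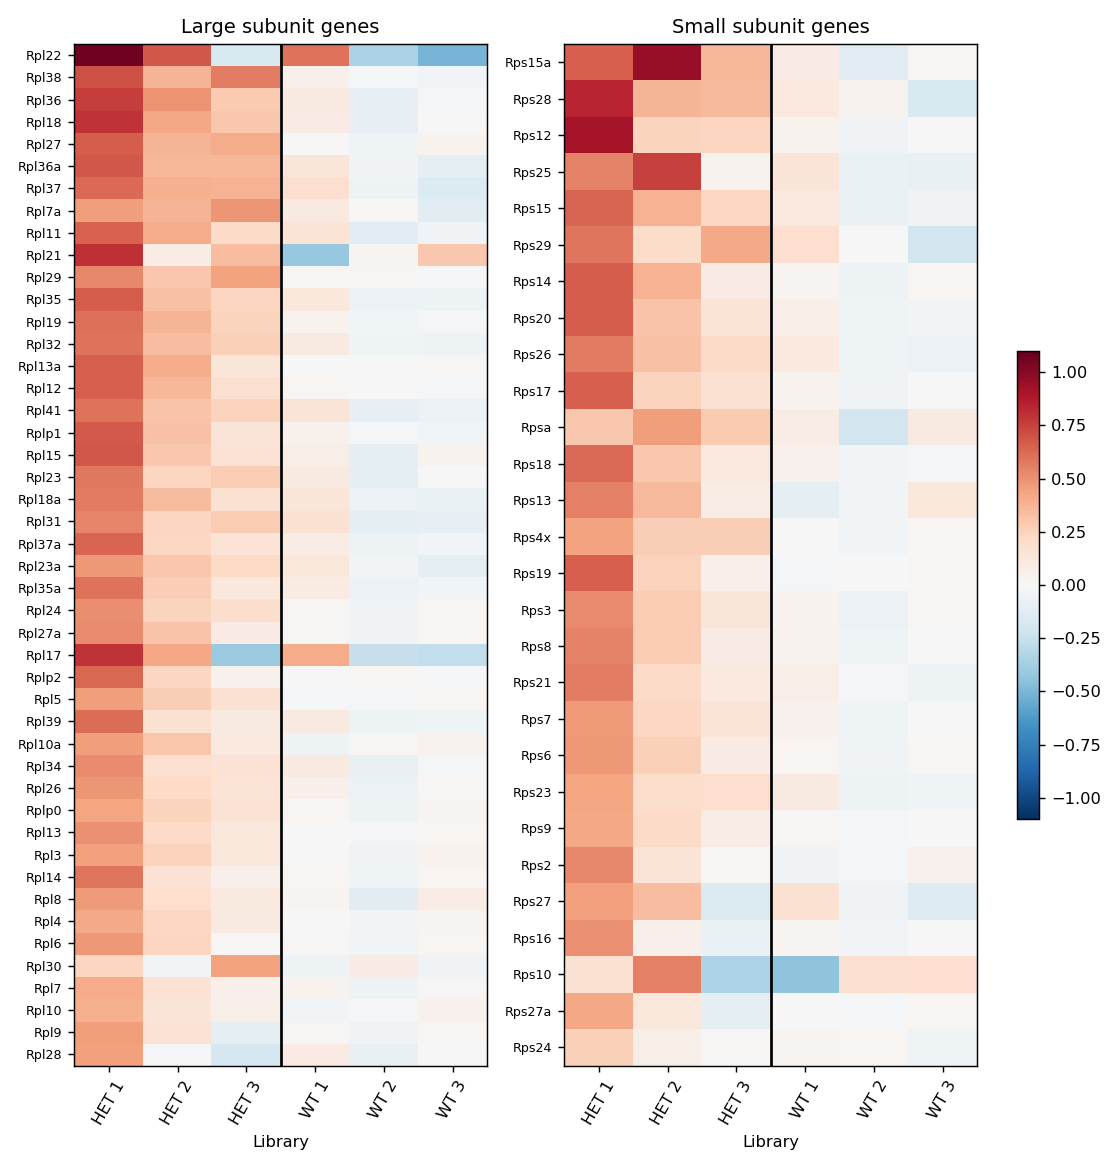
Level of 74 of the 76 genes in each library, as log2 of its FPKM over its mean in WT, with genes sorted by log2 fold change within each subunit. Red is above and blue below the WT mean; HET 1 is the deepest red column, and Rpl22, Rpl17, Rps10 and Rpl21 vary within both genotypes.

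The HET libraries differed among themselves in a shared way. HET replicate 1 was the highest of all 6 libraries for 70 of the 76 genes, HET replicate 2 for 4 (Rps10, Rps15a, Rps25 and Rpsa) and HET replicate 3 for 2 (Rpl7a and Rpl30). HET replicate 3 was the lowest HET library for 67. The median ratio of a member's FPKM to its WT mean was 1.48, 1.21 and 1.11 in the HET libraries, against 1.03, 0.972 and 0.997 in the WT libraries. Accordingly, the members' median coefficient of variation was 15.7% in HET and 3.96% in WT, while over all tested genes it was 8.99% and 5.34%. Across the HET libraries the mitochondrially encoded share, the summed FPKM of all rows and the sums of the lymphocyte and cycling cell markers ran in the same order as the members, and the sum of Paneth cell markers ran in the opposite one. Their part in the result was not tested.

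**Figure D4:**
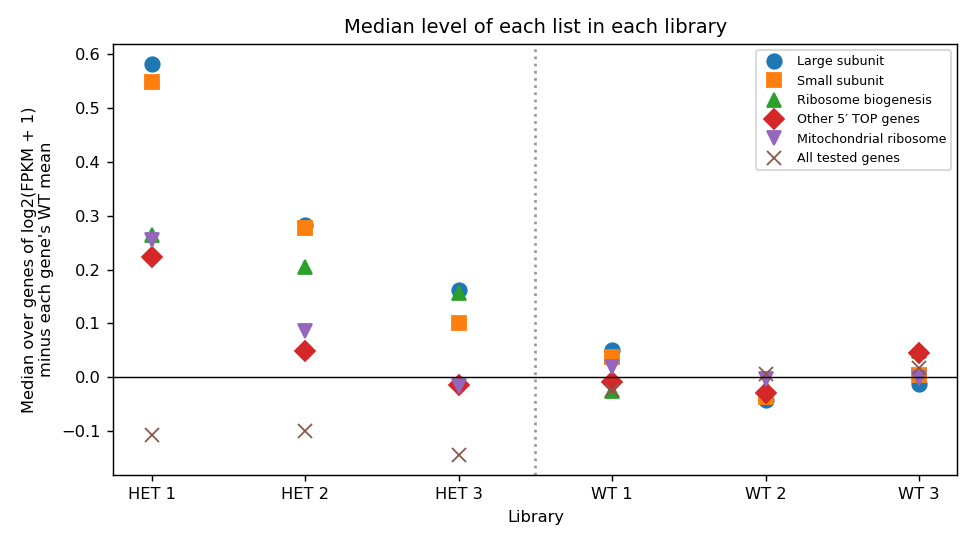
Median over the genes of each list of log2(FPKM + 1) minus the gene's WT mean, in each library. The large and small subunit medians are 0.58 and 0.55 in HET 1, 0.28 and 0.28 in HET 2 and 0.16 and 0.10 in HET 3, while the median of all tested genes is between -0.14 and -0.10 in the 3 HET libraries.

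To ask whether any member departed from the rest, each library was divided by its own sum of ribosomal protein FPKM and fitted again. On this scale 0 members were higher and 0 lower at a limma adjusted p under 0.05, where 1.80% of all tested genes were higher and 61.3% were lower. Before adjustment 4 had a p under 0.05, of which 1 was higher and 3 were lower. The log2 fold changes ran between -0.24 (Rpl28) and 0.33 (Rps15a), 51 of them lay within 0.1 of 0, and the lowest limma adjusted p was 0.057. With a median half-width of 0.21 for the 95% confidence intervals, differences of that size between members were within the error. Without HET replicate 1, 4 members passed on this scale, among them Rps15a, which was higher, and Rpl28 and Rps16, which were lower. Without HET replicate 3, 2 did (Rps15a higher and Rpl30 lower). The 5 members with the highest levels held 13.1% to 13.5% of the module's FPKM in every library.

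Ribosomal protein genes have many near-identical processed copies, and the sources used here do not say how fragments were shared among copies, so single levels are uncertain. In the GENCODE M21 transcripts, 29 members had every stretch of 50 coding bases repeated in another gene, and the median over members was 93.1%. Of the 44 genes with at least 90% of their coding stretches shared, 24 were higher (median log2 fold change 0.34). Of the 22 with 50% to 90% shared, 7 were higher, with a median of 0.32. Of the 10 with under 50% shared, 3 were higher, with a median of 0.30. All HET libraries were above all WT libraries for 33 of the 44, 19 of the 22 and 8 of the 10. Over all tested genes 10.7% were higher and 16.0% had every HET library above every WT library. Rps3, chosen as a member with few shared stretches (8.09%), was at 355, 301 and 271 FPKM in HET and 254, 237 and 252 in WT, and was higher (log2 fold change 0.31, limma adjusted p = 0.046).

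The log2 fold change ran down with the number of coding bases, with a Spearman correlation of -0.38 over the 76 genes, a description over genes that share their libraries. The 38 shorter genes had a median of 0.37 and the 38 longer ones a median of 0.30, and 17 of each were higher. The 13 members with the TOP letters at an annotated start had a median log2 fold change of 0.30 and 3 were higher. For the 43 without them these values were 0.33 and 24. Every HET library lay above every WT library in 10 of the 13 and in 35 of the 43. Over all tested genes 10.7% were higher and 16.0% had every HET library above every WT library. The match is to the exact annotated base, and among 17 other genes with TOP mRNAs only 4 met it (23.5%). Members without the letters are therefore not shown to lack the motif. The difference between these counts was not tested.

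Ribosome genes whose symbols fall outside the naming rule are given by their values. Rack1, a scaffold of protein kinase C on the small subunit head, was at 587, 518 and 448 FPKM in HET and 410.1, 405 and 423 in WT, and was higher (log2 fold change 0.32, limma adjusted p = 0.043). Rps3a1, the mouse gene of a core small subunit protein, was at 810, 677 and 630.1 FPKM in HET and 599, 571 and 591 in WT. Its groups did not overlap, and it did not pass (limma adjusted p = 0.080). Fau, the fusion that gives a small subunit protein, was at 966, 736 and 660.3 FPKM in HET and 725, 731 and 684 in WT. It overlapped, and its log2 fold change of 0.12 was -0.03 without HET replicate 1.

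The 3 paralogues listed for their roles did not pass the test. Rpl22l1, the paralogue of Rpl22, was at 120, 79.9 and 71.4 FPKM in HET and 92.9, 90.7 and 87.1 in WT, with a log2 fold change of -0.03 (limma adjusted p = 0.89) whose sign changed with the scaling. Rps27l, a paralogue of Rps27, was at 221, 192 and 179 FPKM in HET and 185, 171 and 179 in WT (limma adjusted p = 0.23). Rpl36al was at 204, 172 and 161 FPKM in HET and 168, 149 and 150.3 in WT (limma adjusted p = 0.16). Groups overlapped for all 3. Rpl7l1, a paralogue of Rpl7 named after its values were seen, averaged 29.7 ± 2.44 FPKM in HET and 22.9 ± 0.31 in WT and was higher (log2 fold change 0.36, limma adjusted p = 0.0061). Of the 7 rows named as ribosomal pseudogenes, 3 were tested and 0 passed, among them Rps12-ps3 at 391 ± 33.8 FPKM in HET and 348 ± 19.2 in WT, a level as high as that of many members.

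Many genes that build ribosomes were also higher in HET. Of 80 tested genes of ribosome biogenesis and the nucleolus, 46 were higher (57.5%) and 1, Gnl3l, was lower, with a median log2 fold change of 0.22. Nop2, which methylates ribosomal RNA of the large subunit, was at 16.3, 15.8 and 15.3 FPKM in HET and 8.71, 8.95 and 9.55 in WT (log2 fold change 0.74, limma adjusted p = 0.00021). Nob1, the nuclease that matures the RNA of the small subunit, was at 13.9, 12.8 and 13.6 FPKM in HET and 7.0, 7.70 and 8.57 in WT (log2 fold change 0.73, limma adjusted p = 0.00058). Nop16, a nucleolar protein, was at 12.0, 11.3 and 9.50 FPKM in HET and 7.35, 6.15 and 7.40 in WT (log2 fold change 0.58, limma adjusted p = 0.0040). No HET library of these 3 genes fell within the WT range.

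The list's median was 0.26, 0.20 and 0.16 in the 3 HET libraries relative to WT. Without HET replicate 1 it was 0.20, and that of the ribosomal proteins was 0.21. With quantile normalization the list's median was 0.39, above those of the large (0.32) and small subunit (0.28). With a correction for transcript length, GC content and level these medians were 0.37, 0.34 and 0.31. The count of 46 fell to 29 without HET replicate 2, to 26 without WT replicate 1 and to 28 without WT replicate 2. These were 36.25%, 32.5% and 35% of the list, where 7.03%, 6.35% and 7.11% of all tested genes were higher. The count was 54 with a common sum per library and 61 with median-ratio scaling (14.6% and 23.0% of all tested genes). The letters of the TOP motif stood at an annotated start in 1 of 70 biogenesis genes (1.43%), against 2.81% of tested genes other than the members.

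Counts in the other lists of translation genes are to be read against the 10.7% of all tested genes that were higher and the 35.7% that were lower, and against 23.0% higher with median-ratio scaling. Of 25 further genes with TOP mRNAs, 3 were higher (12.0%) and 2 were lower, with a median log2 fold change of 0.09. With median-ratio scaling 12 were higher and 1 was lower, and with a common sum 8 and 2. Without HET replicate 1 the median was -0.01, with 2 higher and 4 lower, and in the other fits without 1 library 1 (each WT library) to 5 (HET replicate 3) were higher. Besides Rack1, the higher ones were Btf3, a factor of nascent chains, at 299, 274 and 261 FPKM in HET and 224, 229 and 232 in WT, and Npm1, the nucleolar chaperone, at 169, 165 and 164 in HET and 140, 131 and 140 in WT. The lower ones were Vim, the intermediate filament protein of mesenchymal cells, at 11.9, 15.3 and 16.0 FPKM in HET and 34.0, 32.8 and 35.6 in WT, and Nap1l1, a histone chaperone, at 9.94, 12.1 and 10.9 in HET and 14.4, 13.2 and 14.6 in WT. The groups did not overlap in these 4 genes, with limma adjusted p of 0.016, 0.0084, 0.00031 and 0.014.

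Among initiation factors 8 of 39 were higher (20.5%) and 4 were lower. With median-ratio scaling 22 were higher and 2 lower, and with a common sum 16 and 2. The count of 8 was 4 without HET replicate 2, 2 without WT replicate 1, 3 without WT replicate 2 and 4 without WT replicate 3. Eif4a2, an RNA helicase that unwinds mRNA leaders, was at 60.4, 59.9 and 53.2 FPKM in HET and 106, 105 and 115 in WT (log2 fold change -0.90, limma adjusted p = 0.00023). Eif5 was lower with a log2 fold change of -0.30 (limma adjusted p = 0.0030) and Eif3i higher with 0.30 (limma adjusted p = 0.023). Of 13 tested genes listed for elongation, 2 were higher (15.4%) and 1 was lower, and with median-ratio scaling 5 and 1. Not all are elongation factors, as the list also holds Etf1, Gspt1, Abce1, Eef2k, Tpt1 and Eef1e1. The count of 2 was 3 without HET replicate 3 and 1 without any other library, and the median log2 fold change, 0.067, was -0.021 without HET replicate 1. Eif5a, which relieves stalled ribosomes, was at 393, 353 and 340.5 FPKM in HET and 259, 268 and 268 in WT, without overlap (log2 fold change 0.45, limma adjusted p = 0.0033). Eef1e1 was higher with a log2 fold change of 0.30 (limma adjusted p = 0.041). The 1 lower gene, Eef1a2, was at 0.73, 0.78 and 0.52 FPKM in HET and 1.26, 1.07 and 1.28 in WT. It passed the filter on low values only through the WT libraries, so its call carries no weight.

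RNA polymerase I transcribes the ribosomal RNA genes, and 2 of its 12 tested genes were higher (16.7%) and 1 was lower. With median-ratio scaling 8 were higher and 0 lower, with a common sum 6 and 0, and without 1 library 1 (WT replicate 1 or 3) to 4 (HET replicate 3) were higher. Polr1b, its second-largest subunit, was at 5.46, 4.78 and 4.51 FPKM in HET and 3.03, 2.64 and 3.14 in WT (log2 fold change 0.59, limma adjusted p = 0.0018). Polr1a, the largest subunit, was higher with a log2 fold change of 0.25 (limma adjusted p = 0.029), and Taf1b, a promoter factor, was lower with -0.22 (limma adjusted p = 0.042). Of 78 genes of the mitochondrial ribosome, which translates mitochondrially encoded mRNAs, 16 were higher and 0 lower, a share of 20.5% with a median log2 fold change of 0.10. Mrpl54, Mrps11 and Mrps34 led them with 0.45, 0.38 and 0.33 (limma adjusted p = 0.00805, 0.010 and 0.037). That count fell to 4 without WT replicate 2, 5 without WT replicate 3 and 8 without HET replicate 2 or WT replicate 1, and was 27 without HET replicate 3. In the first pair of fits it was 5.13% and 6.41% of the list, below the 7.11% and 6.76% of all tested genes. Without HET replicate 1 the median was 0.021, with 11 higher and 3 lower. With median-ratio scaling 38 were higher, and with a common sum 28.

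Among 19 genes of mTORC1 and its translation targets, 4 were higher and 4 were lower, and with median-ratio scaling 7 and 3. Myc, a transcription factor with ribosome genes among its targets, was at 22.1, 21.6 and 18.7 FPKM in HET and 9.36, 10.02 and 9.38 in WT, far apart (log2 fold change 1.04, limma adjusted p = 0.00018). Eif4ebp3, a repressor of cap-dependent initiation, was at 21.1, 23.7 and 20.2 FPKM in HET and 3.11, 3.49 and 3.41 in WT (log2 fold change 2.38, limma adjusted p = 6.87e-06). Ddit4, an inhibitor of mTORC1, was at 14.2, 14.1 and 13.7 FPKM in HET and 9.33, 8.57 and 9.29 in WT (log2 fold change 0.58, limma adjusted p = 0.00042). The fourth was Larp4, with 0.18. The lower ones were Eif4ebp1 with -0.56, Tsc2 with -0.30, Rptor with -0.30 and Tsc1 with -0.27; Larp4 and these 4 were named after their values were seen.

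**Figure D5:**
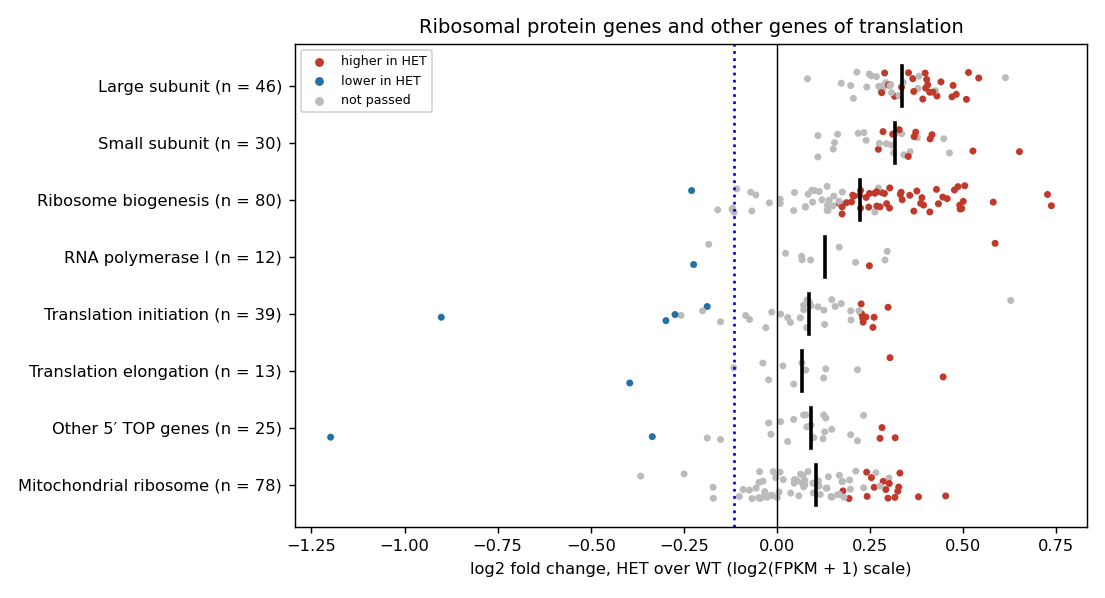
Log2 fold change, HET over WT, of each tested gene of 8 lists, with black bars at the list medians and a dotted line at the median of all tested genes. Points are spread vertically at random within a list. Red points were higher and blue points lower at a limma adjusted p under 0.05. As deposited, the subunit medians (0.34 and 0.32) lie right of that of ribosome biogenesis (0.22). With quantile normalization this order was reversed (0.32 and 0.28 against 0.39).

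Several ribosomal protein genes serve as reference genes in quantitative PCR. Of the 6 on a list of 18 common reference genes (Rplp0, Rpl13a, Rpl19, Rpl32, Rps18 and Rps29), 5 were higher in HET, with folds of mean FPKM of 1.22 to 1.33, and all 6 had every HET library above every WT library. Of the other 12, 2 were higher (Tfrc and Tbp), 1 was lower and 9 did not pass. Over all tested genes 10.7% were higher, 35.7% were lower and 16.0% had every HET library above every WT library. In the 6 fits without 1 library, Rpl19 and Rpl32 passed in 4, and Rplp0, Rpl13a and Rps29 in 2.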

How the data were processed

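RNA-seq of 6 mouse intestine libraries (3 HET, 3 WT) was analysed. Per the labels' protocols, oligo(dT) beads captured the RNA and a SMARTER mRNA-seq kit gave the libraries. Levels are FPKM as the authors deposited them, 1 column per library. The submitters' processing notes name the build GRCm39; the aligner, the counting tool and the use of strand are not stated in the sources used here. FPKM divides by each library's total, so a few abundant genes can shift all others, and no counting error can be given from it.

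After a filter of FPKM at or above 1 in 3 or more libraries, log2(FPKM + 1) was fitted by limma 3.58.1, under R 4.3.3. The fit used eBayes with trend and genotype only, with a Benjamini-Hochberg adjusted p under 0.05 over 11870 genes. It was also run on simulated data, with no outcome given here. Shares are sums of member FPKM over all rows and carry no test. No pair of libraries held identical values. Other tools were matplotlib 3.10.9, SciPy 1.17.1, pandas 2.3.3, numpy 2.4.6 and Python 3.11.15. Shared coding stretches of 50 bases came from GENCODE M21 and annotated starts from RefSeq, both on GRCm38 and not on the build of the values.

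Members and lists were chosen with earlier results of these data known. Named genes are the 6 passing members with the largest rise (no member fell), the 5 highest and 4 lowest by mean FPKM, genes listed for their roles, and up to 3 passing genes of each further list; others are said to be chosen later. A few genes under this rule go unreported here, and the plots by gene leave out 2 members. Alternatives were pseudocounts of 0.1 and 0.01, no filter, a mean FPKM of at least 5, 4 scalings, the replicate number as a block, eBayes without trend or robust, and each library left out. A correction for transcript length and GC content, with and without level, was added after seeing the data.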

Additional observations from a re-analysis of the deposited data

How the results depend on the processing

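The count of 34 ribosomal protein genes higher in HET was 20 with no filter on low values, 62 with a common sum per library, with or without mitochondrially encoded genes, 65 with median-ratio scaling and 65 with the length and GC correction, which was added after seeing the data. Of all tested genes, 10.7% were higher as deposited, 5.75% with no filter, 14.6% and 16.7% with those sums, 23.0% with median-ratio scaling and 28.4% with the correction. It was 7 to 59 with 1 library left out. Adding level to that correction gave 38 (24.0% of all tested genes). The count of lower members was 0 under every alternative, and the median log2 fold change was 0.21 to 0.47. All genes called were 5504 of 11870 tested, and 2797 of the 7341 tested with a mean FPKM of at least 5. With the 20 highest other rows left out of the sum, the difference in share was 2.01 percentage points for all members, 1.22 for the large and 0.796 for the small subunit. With 1 library left out these differences were 1.12 to 1.76, 0.684 to 1.04 and 0.436 to 0.714, and that of the subunit ratio was 0.013 to 0.047. After scaling to the module's sum, 0 to 4 members passed with 1 library left out.

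The replicate number as a block gave 40 higher members, and after scaling to the module's sum 1 passed (Rpl28, lower). Same-numbered libraries deviated together only in part (correlations of -0.03, 0.13 and 0.32), so the numbers were not taken to pair them.

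Of the named genes, Fau changed sign without HET replicate 1 (log2 fold change -0.033). Rpl22l1, -0.03 as deposited, was 0.019 with a common sum, 0.054 with that sum without mitochondrially encoded genes, 0.10 with median-ratio scaling, 0.026 with quantile normalization, 0.32 with the length and GC correction and 0.24 with level added; with 1 library left out it was -0.25 to 0.12. With quantile normalization Eef1a2 was 0.027 and Taf1b 0.0796, and Taf1b was 0.071 with length, GC and level. The cause was not tested. The FPKM table holds no read counts, so the precision of weakly expressed genes rests on 3 libraries a genotype alone.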
